A study of Mus musculus with 32 samples.

Results

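Klf15 and Zbtb16 encode zinc finger transcription factors, and the chromatin around both was described here in mouse liver from 5 deposited lists of intervals in the mm9 genome build. The members are the intervals whose centre lies in chr6:90350000-90500000, the Klf15 window of 150 kb, or in chr9:48400000-48700000, the Zbtb16 window of 300 kb. They number 219 of the 180039 intervals in all lists, 101 at Klf15 and 118 at Zbtb16. The windows were chosen by their high number of peaks of the glucocorticoid receptor (GR), so their GR count is a description and supports nothing. The nearest GR peak inside the left edge of the Klf15 window lay 35.6 kb from it and the nearest outside 5.91 kb from it, and the right edge had GR peaks 3.54 kb inside and 3.42 kb outside. At Zbtb16 the left edge had GR peaks 5.03 kb inside and 6.25 kb outside, while the right edge had them 66.9 kb inside and 703 kb outside. GR peaks thus went on close outside both edges of the Klf15 window and the left edge of the Zbtb16 window. With centres within 20 kb joined, the runs at the right edge of Klf15 and the left edge of Zbtb16 are cut off by the window. At the left edge of Klf15 no run is cut, since its first GR peak inside lies 35.6 kb away.

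GR is a hormone-activated transcription factor that binds DNA on ligand binding, often at sites where chromatin is already accessible. C/EBPβ is a leucine zipper factor abundant in hepatocytes that binds many of the same regulatory regions. Klf15, a Krüppel-like factor, takes part in hepatic gluconeogenesis and amino acid breakdown and is a known glucocorticoid target. Zbtb16, also called PLZF, is a BTB domain factor that acts mostly as a transcriptional repressor and is likewise known to respond to glucocorticoids.

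The livers came from male C57BL/6 mice 8 weeks old whose adrenal glands had been removed on both sides, which takes away most endogenous corticosterone. Animals of the dexamethasone group received an intraperitoneal dose of 1 mg/kg of this synthetic GR ligand, complexed with cyclodextrin, in 300 ul of saline, and the control animals received the cyclodextrin vehicle. Tissue was taken after 1 h, per the design text. The series lists 32 samples, with 2 each for GR ChIP-seq, C/EBPβ ChIP-seq and DNase-seq under either treatment, and the adenovirus, RNA polymerase II and input samples were not used here. C/EBPβ and DNase-seq have 1 list for each treatment, and GR has 1 list that names no treatment. The lists carry positions but no counts, heights or replicate values, so read depth is unknown, no change between treatments has a replicate check and no p-value is given. A range given in parentheses beside a share is its 95% Wilson interval, which covers only counting error. The liver label could not be checked against marker genes, since the lists hold no expression.

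The genes could not be laid on the lists, because the gene and promoter tables at hand refer to another build, GRCm38.p6. In that annotation Klf15 lies between Cfap100 and Aldh1l1, and Zbtb16 lies between Nnmt and the noncoding RNA gene Gm32335, with Gm32280 inside it. A site in a window is thus not assigned to Klf15 or Zbtb16 rather than to a neighbour. The promoter of Klf15 is shown because it is the regulatory start of a gene named here. It is the 250 bases before the transcription start in RefSeq (GRCm38.p6, plus strand, chr6:90462326-90462575), and no promoter of Zbtb16 is shown.

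Klf15 promoter: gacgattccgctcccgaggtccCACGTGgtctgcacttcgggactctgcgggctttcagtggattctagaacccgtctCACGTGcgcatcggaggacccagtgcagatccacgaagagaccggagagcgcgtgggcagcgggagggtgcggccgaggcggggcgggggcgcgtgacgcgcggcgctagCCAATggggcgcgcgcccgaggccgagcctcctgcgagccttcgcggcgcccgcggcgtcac

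Capitals mark 2 matches to the E-box CACGTG and 1 match to CCAAT, motifs looked for after the sequence had been seen, on both strands and with no overlap between them. The letters CACGTG occur in 6.02% and CCAAT in 33.8% of the 32851 RefSeq promoters of this length. The GR half-site AGAACA, found in 16.1% of promoters, and the C/EBP core TTGCNNAA, found in 9.56%, had 0 matches in these 250 bases. G and C made up 72% of the bases, against a median of 52.4% over all promoters.

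Both windows were crowded with all 3 kinds of site. The Klf15 window held 17 GR peaks, 21 C/EBPβ peaks in the dexamethasone list and 13 in the vehicle list. It held 28 DNase I hypersensitive sites (DHS), which mark accessible chromatin, in the dexamethasone list and 22 in the vehicle list. The Zbtb16 window of 300 kb held 24 GR peaks, 21 and 15 C/EBPβ peaks after dexamethasone and vehicle, and 31 and 27 DHS after dexamethasone and vehicle. Per 100 kb this came to 11.3 GR peaks at Klf15 and 8 at Zbtb16. Widths of DHS summed to 20486 bp in the Klf15 window after dexamethasone and 15022 bp after vehicle. These sums equal 13.7% of the window after dexamethasone and 10.01% after vehicle. At Zbtb16 the widths summed to 25595 bp after dexamethasone and 20645 bp after vehicle, or 8.53% after dexamethasone and 6.88% after vehicle. An overlap between neighbouring dexamethasone DHS at Klf15 is counted in both.

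**Figure D1:**
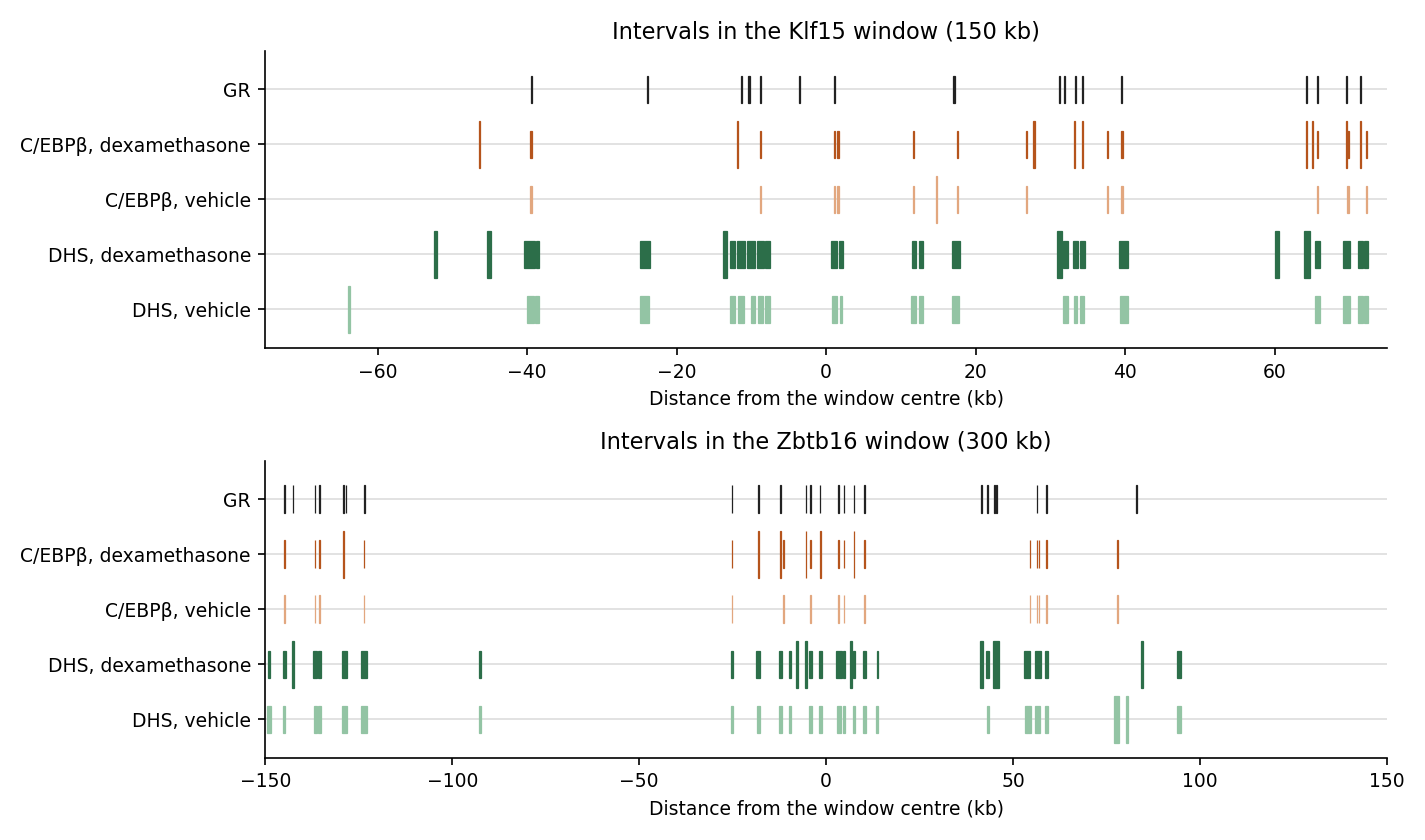
Intervals of the 5 lists in the Klf15 window (top) and the Zbtb16 window (bottom), by distance from the window centre in kb; tall bars are C/EBPβ peaks or DHS found in 1 of the 2 treatments' lists only, and bars are drawn at true width with a thin outline. The Klf15 window holds 17 GR peaks spread along its length, and the 24 GR peaks of Zbtb16 fall into runs with an empty stretch of 98.3 kb.

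Windows of the same size tiled along the autosomes give the background for these counts. Of 11516 autosomal windows of 150 kb that held any interval and did not overlap Klf15, 1 had at least 17 GR peaks, and the median window had 0. At least 21 dexamethasone C/EBPβ peaks were found in 2 of these windows and at least 28 dexamethasone DHS also in 2, against medians of 1 and 4. The vehicle lists placed Klf15 less far out, with 52 windows (0.452%) holding at least 13 vehicle C/EBPβ peaks and 17 windows (0.148%) at least 22 vehicle DHS. For Zbtb16, 1 of 6654 windows of 300 kb had at least 24 GR peaks, and the median was 1. At least 21 dexamethasone C/EBPβ peaks were found in 41 windows (0.616%) and at least 15 vehicle ones in 125 (1.88%), while 70 windows (1.05%) had at least 31 dexamethasone DHS and 118 (1.77%) at least 27 vehicle DHS. Zbtb16 thus stood further out for GR, on which it was chosen, than for C/EBPβ or DHS.

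Fixed tiles can cut through a dense region, whereas the Klf15 and Zbtb16 windows were placed around theirs. Windows sliding in steps of 10 kb, added after seeing the data, found at least 17 GR peaks in 6 separate regions outside Klf15 and at least 24 in 3 separate regions outside Zbtb16. The fullest sliding windows held 21 GR peaks in 150 kb and 27 in 300 kb. By the same sliding windows, 11 regions reached the dexamethasone C/EBPβ count of Klf15 and 10 its dexamethasone DHS count.

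**Figure D2:**
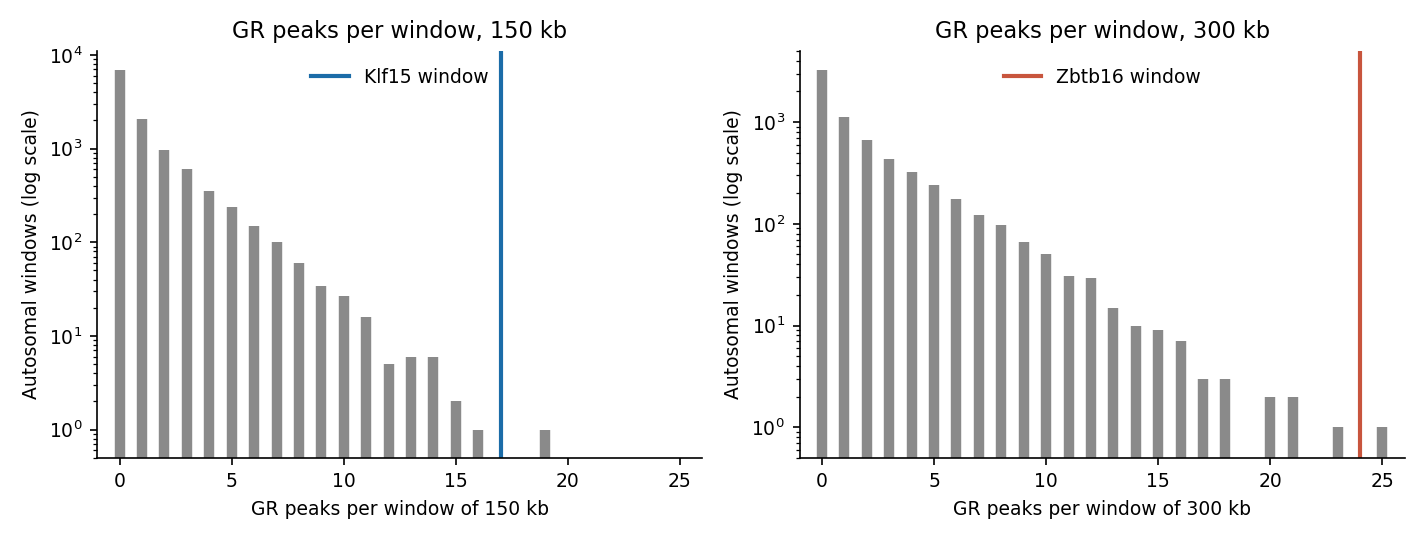
Number of autosomal windows (log scale) by GR peaks per window, for windows of 150 kb (left) and 300 kb (right); vertical lines mark the 17 GR peaks of the Klf15 window and the 24 of the Zbtb16 window. In both panels 1 window lies to the right of the line.

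GR peaks followed each other closely in both windows. Neighbouring GR centres at Klf15 were a median of 4301 bp apart (quartiles 1405.75 and 12966 bp) and at Zbtb16 2761 bp apart (quartiles 1737 and 6647.5 bp), against 29234.5 bp over all 11666 GR peaks. Short gaps are built into windows chosen for many GR peaks. With centres within 2 kb joined, the 17 peaks of Klf15 formed 10 groups and the 24 of Zbtb16 formed 17, of up to 4 peaks each. Between GR peaks of the same window, the longest stretch without one was 24.6 kb at Klf15, shorter than the GR-free left end of that window, and 98.3 kb at Zbtb16. The stretch at Zbtb16, chr9:48426505-48524764, held 0 C/EBPβ peaks of either list and 1 DHS, present in both lists.

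Accessibility of these GR peaks in the vehicle list was close to that of GR peaks in general. A DHS of the vehicle list overlapped 13 of the 17 GR peaks at Klf15 (76.5%, 52.7 to 90.4) and 18 of 24 at Zbtb16 (75%, 55.1 to 88), beside a background of 79.2% over all GR peaks. A DHS of the dexamethasone list that shared no base with a vehicle DHS (dex-only) held 2 GR peaks at Klf15 (11.8%, 3.29 to 34.3) and 5 at Zbtb16 (20.8%, 9.24 to 40.5), beside 15.6% overall. In a shared DHS but beyond its vehicle interval lay 1 GR peak at Klf15 (5.88%) and 0 at Zbtb16, where 0 of 24 has an upper Wilson limit of 13.8%, and the background was 1.98%. No DHS of either list was found at 1 GR peak of each locus, chr6:90421320-90421470 and chr9:48632988-48633138, beside 3.26% of all GR peaks. Every background value fell inside the interval of its locus.

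More GR peaks of both loci carried C/EBPβ in the dexamethasone list than in the vehicle list. At Klf15 a dexamethasone C/EBPβ peak overlapped 10 of 17 GR peaks (58.8%, 36.01 to 78.4) and a vehicle peak 5 of 17 (29.4%, 13.3 to 53.1). At Zbtb16 the counts were 17 of 24 (70.8%, 50.8 to 85.1) after dexamethasone and 11 of 24 (45.8%, 27.9 to 64.9) after vehicle. The backgrounds over all GR peaks were 62% for the dexamethasone list and 50.4% for the vehicle list. A C/EBPβ peak present in the dexamethasone list and absent from the vehicle list lay at 5 GR peaks of Klf15 (29.4%, 13.3 to 53.1) and 6 of Zbtb16 (25%, 12 to 44.9). That was 11 of 41 in all (26.8%, 15.7 to 41.9), beside a background of 11.9%. GR peaks of a locus lie close together and the loci were chosen, so these intervals do not test a difference from the background. No C/EBPβ peak of either list touched 7 GR peaks at each locus (41.2% of those at Klf15 and 29.2% of those at Zbtb16), beside 37.6%. A C/EBPβ peak in the vehicle list alone was found at 0 of the 41 GR peaks, a class that held 0.317% of all GR peaks.

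**Figure D3:**
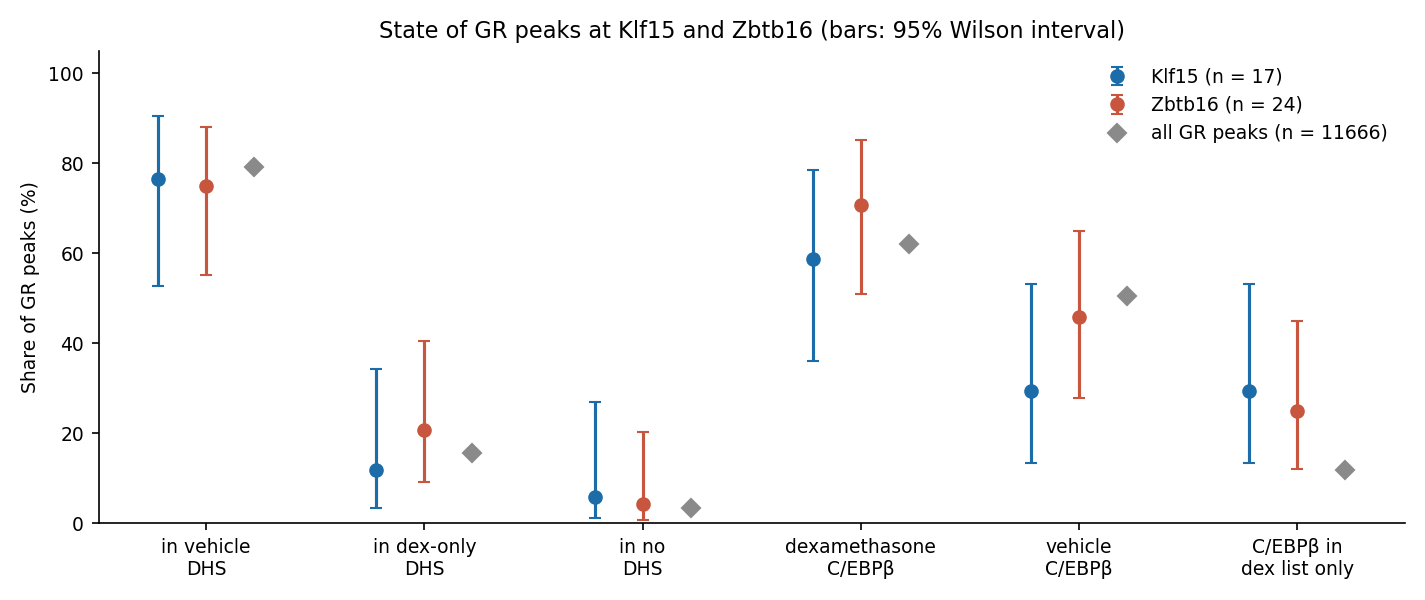
Share of GR peaks (%) in a vehicle DHS, a dex-only DHS or no DHS, and with C/EBPβ peaks of either list or of the dexamethasone list only, at Klf15 (17 peaks) and Zbtb16 (24 peaks), with 95% Wilson intervals as bars, and over all 11666 GR peaks (diamonds). GR peaks with dex-only C/EBPβ make up 29.4% at Klf15 and 25% at Zbtb16, and 11.9% over all GR peaks.

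Other windows rich in GR peaks gave a closer comparison, though nearly all held fewer GR peaks than the loci. At least 10 GR peaks were found in 64 autosomal windows of 150 kb, of which 1 held at least the 17 of Klf15. In the 64 windows the share of GR peaks with dex-only C/EBPβ had a median of 10% (quartiles 0 and 20.4%), and 13 exceeded the 29.4% of Klf15. The share with a vehicle C/EBPβ peak had a median of 50%, and 54 of the 64 windows exceeded the 29.4% of Klf15. The same rule gave 163 windows of 300 kb, of which 1 held at least the 24 GR peaks of Zbtb16. Their dex-only C/EBPβ share had a median of 10% (quartiles 6.67 and 20%), and 16 exceeded the 25% of Zbtb16 while 6 equalled it. For the share of GR peaks in vehicle DHS, 42 of 64 windows lay above Klf15 and 103 of 163 above Zbtb16. These places are descriptions of chosen windows, and no locus was tested against the others.

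The dexamethasone lists were the longer ones over the whole genome, with 25392 C/EBPβ peaks after dexamethasone and 22714 after vehicle (ratio 1.12) and 63473 DHS after dexamethasone and 56794 after vehicle (ratio 1.12). The same ratio for C/EBPβ peaks was 1.62 at Klf15 and 1.40 at Zbtb16, and for DHS 1.27 at Klf15 and 1.15 at Zbtb16. Of the 21 dexamethasone peaks at Klf15 9 were dex-only (42.9%, 24.5 to 63.5), beside a background of 20%, and of its 13 vehicle peaks 1 was vehicle-only (7.69%, 1.37 to 33.3), beside 10.6%. At Zbtb16 6 of 21 dexamethasone peaks were dex-only (28.6%, 13.8 to 49.96) and 0 of 15 vehicle peaks were vehicle-only, with an upper limit of 20.4%. All 6 dex-only C/EBPβ peaks of Zbtb16 overlapped a GR peak, as did 5 of the 9 at Klf15 (55.6%), beside 27.5% of dex-only C/EBPβ peaks overall. C/EBPβ peaks of both lists met a GR peak in 11 of 15 cases at Zbtb16 (73.3%) and 5 of 12 at Klf15 (41.7%), beside 28.9%. Altogether 17 of 21 dexamethasone C/EBPβ peaks met a GR peak at Zbtb16 (81%, 60 to 92.3) and 10 of 21 at Klf15 (47.6%, 28.3 to 67.6), beside 28.6%. The GR count that chose the windows enters these overlap shares, which are given as a description. All 27 shared C/EBPβ peaks of both windows had the same start and end in both lists, and all 15 dex-only ones measured 150 bp, as did every one of the 5079 over the genome. Peaks of both lists measured 150 to 173 bp at Klf15 and 150 to 178 bp at Zbtb16. How the authors joined peaks can thus set what counts as shared, and its part in these shares was not tested. Of 163 GR-rich windows of 300 kb, 2 exceeded the 81% of Zbtb16, and of 64 windows of 150 kb, 45 exceeded the 47.6% of Klf15. For dex-only C/EBPβ peaks with GR, 58 windows of 150 kb had a median of 50%, and 23 exceeded Klf15. The median of 155 windows of 300 kb was 42.9%, and 18 equalled the 100% of Zbtb16. For C/EBPβ peaks of both lists the medians were 55.6% at 150 kb and 50% at 300 kb. Here 52 of 64 windows exceeded Klf15 and 14 of 163 exceeded Zbtb16. The GR count enters these places too. Only 1 of the 163 windows held at least the 24 GR peaks of Zbtb16, and 1 of the 64 at least the 17 of Klf15.

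Of the 11 sites with GR and dex-only C/EBPβ, 9 were in vehicle DHS (81.8%, 52.3 to 94.9), beside a background of 69.1% of all such GR peaks, which lay inside the interval. They were 4 of the 5 at Klf15 and 5 of the 6 at Zbtb16, and the remaining site of each locus was in a dex-only DHS. Of the 4 dex-only C/EBPβ peaks at Klf15 without GR, 1 lay in a vehicle DHS and 3 in no DHS of either list (75%, 30.1 to 95.4), beside 19.9% of the 3682 such peaks overall. C/EBPβ peaks of both lists lay in no DHS in 3 of 12 cases at Klf15 (25%, 8.89 to 53.2) and 1 of 15 at Zbtb16 (6.67%, 1.19 to 29.8), beside 10.5%. GR and C/EBPβ centres at the 11 sites were 3 to 64 bp apart in the dexamethasone list. The nearest vehicle C/EBPβ peak to the same GR centres was between 202 and 6650.5 bp away. These sites were picked because a dexamethasone C/EBPβ peak overlapped the GR peak and no vehicle peak did, so this contrast of distances is built in. Over all GR peaks of a locus the median distance to a C/EBPβ centre was 64 bp after dexamethasone and 1454 bp after vehicle at Klf15, and 17.5 bp after dexamethasone and 968.5 bp after vehicle at Zbtb16. Over all 11666 GR peaks the medians were 45 bp after dexamethasone and 137 bp after vehicle. The vehicle quartiles were 64.5 and 4283 bp at Klf15, 13.1 and 5160 bp at Zbtb16, and 18 and 6688 bp over all. Such a median depends on whether most of the GR peaks overlap a C/EBPβ peak, so it largely restates the overlap shares.

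**Figure D4:**
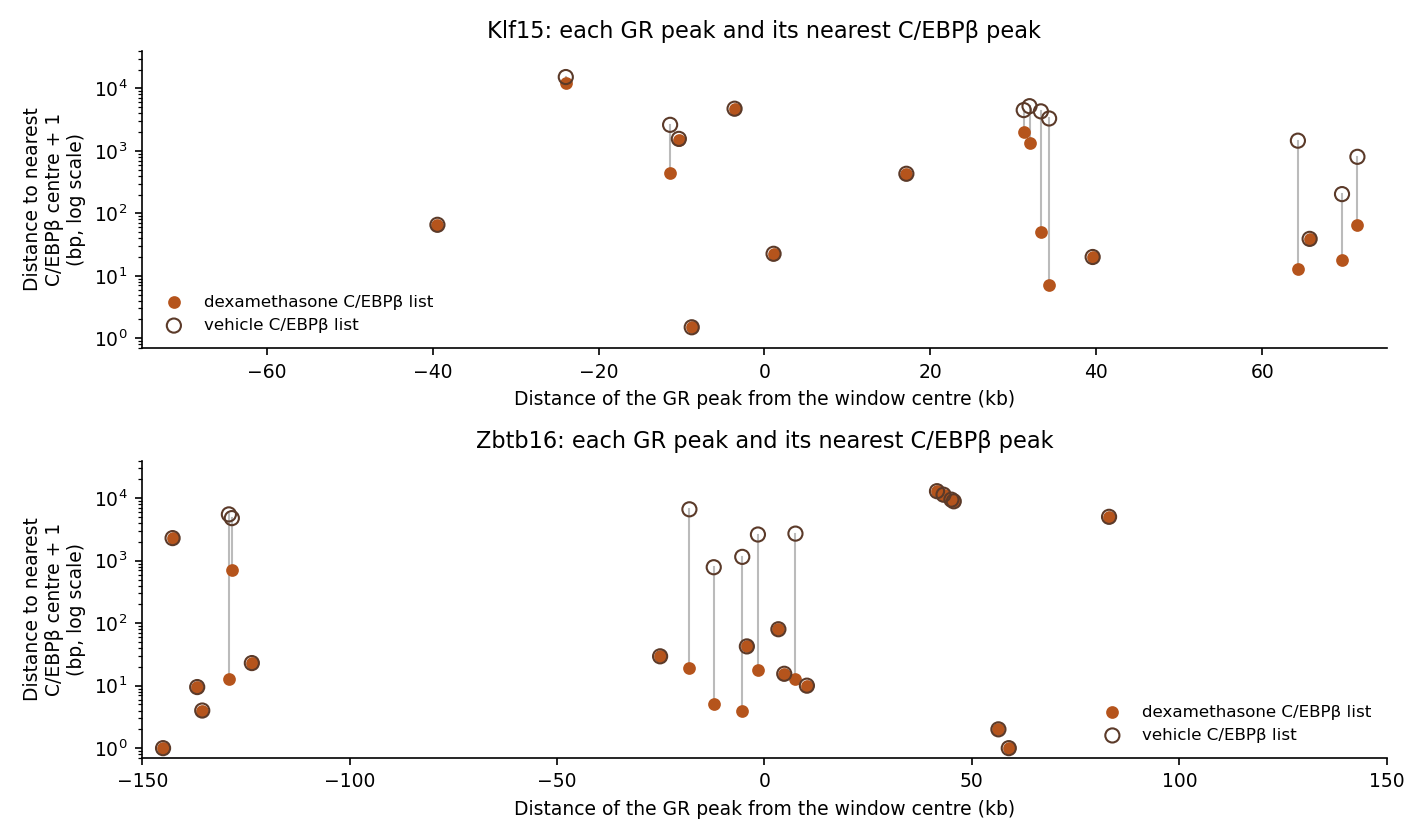
Distance from each GR peak to the nearest C/EBPβ centre (bp plus 1, log scale) in the dexamethasone list (filled) and the vehicle list (open), by position in the Klf15 window (top) and the Zbtb16 window (bottom); a line joins the 2 values of a GR peak. Peaks with coinciding symbols have the same nearest C/EBPβ peak in both lists, and the 5 GR peaks of Klf15 and 6 of Zbtb16 with dex-only C/EBPβ have filled symbols at 3 to 64 bp and open ones at 202 bp or more, a contrast that their choice by overlap builds in.

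Along the Klf15 window the 5 GR peaks with dex-only C/EBPβ all lay to the right of the centre. The left part held GR peaks with the same C/EBPβ peak in both lists or with none. It also held the dex-only C/EBPβ peaks chr6:90378562-90378712 and chr6:90413108-90413258, which overlapped no GR peak. The GR peak chr6:90385506-90385656 had C/EBPβ in both lists, in a DHS of 1420 bp after dexamethasone and 899 bp after vehicle. The GR peak chr6:90400978-90401128 had none, in a DHS of 1344 bp after dexamethasone and 1125 bp after vehicle. A group of 3 GR peaks spanned 2.76 kb from 90413551. Its first peak lay in a DHS of 987 bp after dexamethasone and 829 bp after vehicle. The second of these dex-only C/EBPβ peaks overlapped the same DHS, 443 bp from the GR centre. The second GR peak of the group, chr6:90414605-90414755, was covered by a DHS of 1085 bp after dexamethasone that measured 594 bp after vehicle and did not then reach the peak. The last of the group, chr6:90416158-90416308, coincided with a C/EBPβ peak of both lists, with centres 0.5 bp apart. Near the window centre, chr6:90426021-90426171 had C/EBPβ in both lists, and chr6:90442027-90442177 had none on it, although its DHS held a C/EBPβ peak of both lists 428.5 bp from the GR centre.

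The densest stretch of Klf15 was chr6:90456172-90459380, with 4 GR peaks in 3.21 kb. Within 1 kb of it there were 5 DHS after dexamethasone and 3 after vehicle, and 2 C/EBPβ peaks after dexamethasone and 0 after vehicle. Of these 5 DHS 1 was only 150 bp wide, chr6:90455857-90456007, and overlapped the next DHS of the same list. Both C/EBPβ peaks of the stretch coincided with GR peaks, with centres 50 bp and 6 bp apart. The first of those sites lay in a DHS 693 bp wide after dexamethasone and 423 bp wide after vehicle, and the second in a DHS of 624 bp after dexamethasone and 551 bp after vehicle. Of the other 2 GR peaks, chr6:90456172-90456322 lay in a dex-only DHS of 515 bp, and chr6:90456868-90457018 lay in a DHS of 601 bp after dexamethasone and 637 bp after vehicle. Of the 14 GR-bound DHS matched between the lists at Klf15, this DHS alone was narrower after dexamethasone. The next GR peak, chr6:90464480-90464630, had C/EBPβ in both lists.

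At the right end of the Klf15 window 4 GR peaks spanned 7.32 kb from 90489216. Within 1 kb there were 5 DHS after dexamethasone and 4 after vehicle, and 7 C/EBPβ peaks after dexamethasone against 3 after vehicle. The first GR peak lay in a dex-only DHS, chr6:90488976-90489788, 812 bp wide, with a dex-only C/EBPβ peak 12 bp from its centre. Of all 15076 dex-only DHS, 3.08% were as wide or wider. The second GR peak had C/EBPβ in both lists, and the remaining 2 had dex-only C/EBPβ in DHS present after vehicle as well. At 1 of these, chr6:90494533-90494683, the same DHS also held a C/EBPβ peak of both lists, 202 bp from the GR centre. A C/EBPβ peak was thus present in that DHS after vehicle too.

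Inside the Zbtb16 window, GR peaks formed 3 runs and 1 lone peak when centres within 20 kb were joined. The left run held 7 GR peaks in 21.6 kb, the central run 10 in 35.5 kb and the right run 6 in 17.5 kb. The left run is cut by the window edge, since the GR peak chr9:48393680-48393830 outside it would join by the same rule. Dex-only C/EBPβ was found at 1, 5 and 0 GR peaks of these runs. In the left run 6 of 7 GR peaks lay in vehicle DHS and 4 had C/EBPβ in both lists. The exception, chr9:48407250-48407400, lay in a dex-only DHS of 533 bp, and its nearest C/EBPβ centre was 2300 bp away in both lists. The DHS around the first GR peak of the run measured 876 bp after dexamethasone and 492 bp after vehicle, the largest relative difference among the matched DHS of Zbtb16 that were wider after dexamethasone.

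In the central run every GR peak overlapped a dexamethasone C/EBPβ peak, 5 with a peak of both lists and 5 with a dex-only peak. A vehicle DHS was present at 9 of the 10. The exception, chr9:48544568-48544718, lay in a dex-only DHS of 664 bp with a dex-only C/EBPβ peak 3 bp from its centre. At chr9:48531830-48531980 the C/EBPβ peak was dex-only and the DHS measured 1027 bp after dexamethasone and 616 bp after vehicle. At chr9:48548346-48548496 the C/EBPβ peak was also dex-only, and the DHS measured 827 bp after dexamethasone and 624 bp after vehicle. At chr9:48537695-48537845 it was dex-only too, but the DHS measured 618 bp after dexamethasone and 705 bp after vehicle.

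The right run of Zbtb16 held 4 of the 7 GR peaks with no C/EBPβ. Its first 4 GR peaks, within 4.19 kb (chr9:48591508-48595699), had their nearest C/EBPβ centre between 8931 and 12972 bp away in both lists. Within 1 kb of them there were 3 DHS after dexamethasone and 1 after vehicle. Of the 5 GR peaks of the window in dex-only DHS, 3 lay here. The peak chr9:48591508-48591658 was in a dex-only DHS of 670 bp, and chr9:48594982-48595132 and chr9:48595549-48595699 shared a dex-only DHS of 1448 bp. Of all 15076 dex-only DHS, whose median width was 476 bp, 24 (0.159%) were at least as wide as this one. The peak between them, chr9:48593088-48593238, lay in a DHS of 744 bp after dexamethasone and 562 bp after vehicle. The last 2 GR peaks of the run each coincided with a C/EBPβ peak of both lists, with centres 1 bp and 0 bp apart.

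For accessible sites as a whole, the shares found in 1 list only had intervals that held the background. Of the dexamethasone DHS 7 of 28 were dex-only at Klf15 (25%, 12.7 to 43.4) and 7 of 31 at Zbtb16 (22.6%, 11.4 to 39.8), beside a background of 23.8%. Of the vehicle DHS 1 of 22 was vehicle-only at Klf15 (4.55%, 0.807 to 21.8) and 2 of 27 at Zbtb16 (7.41%, 2.06 to 23.4), beside 14.9%. A GR peak lay in 16 of 28 dexamethasone DHS at Klf15 (57.1%) and 21 of 31 at Zbtb16 (67.7%), beside 16.7%, a difference that the choice of the windows builds in. Among dex-only DHS 2 of 7 at Klf15 (28.6%, 8.22 to 64.1) and 4 of 7 at Zbtb16 (57.1%, 25 to 84.2) held GR, beside 11.9%. The choice of the windows enters this share as well. In GR-rich windows with any dex-only DHS its median was 34.8% at 150 kb and 28.6% at 300 kb. Of these windows 40 of 62 exceeded Klf15 and 20 of 163 exceeded Zbtb16. Of the 21 GR-bound DHS of Zbtb16, 2 held 2 GR peaks each (9.52%, 2.65 to 28.9), and of the 16 at Klf15 0 held more than 1 (upper limit 19.4%), beside a background of 6.16%, which lay inside both intervals.

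DHS present in both lists were mostly wider after dexamethasone, and width stands in here for signal, which the lists lack. At Klf15 15 of 21 DHS with a lone partner in the other list were wider, with median widths of 707 bp after dexamethasone and 637 bp after vehicle and a median of 0.18 for log2 of the width after dexamethasone over that after vehicle (quartiles -0.01 and 0.26). At Zbtb16 18 of 23 were wider and 4 narrower, with medians of 789 bp after dexamethasone and 678 bp after vehicle and a median of 0.15 for that log2 value (quartiles 0.06 and 0.26). Over all 44381 matched DHS 51.1% were wider and the median was 0.01. GR peaks lay in 14 of the 21 matched DHS at Klf15 and 17 of the 23 at Zbtb16, against 8113 of all 44381. Matched DHS with GR were more often wider over the genome too, so the choice of the windows enters these shares. Matched DHS with a GR peak had a median of 0.21 at Klf15 (13 of 14 wider) and 0.15 at Zbtb16 (15 of 17 wider), beside 0.12 over all 8113 (70.8% wider). Without a GR peak 2 of 7 were wider at Klf15 and 3 of 6 at Zbtb16, beside 46.7% of 36268. Widths in other GR-rich windows were not compared.

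**Figure D5:**
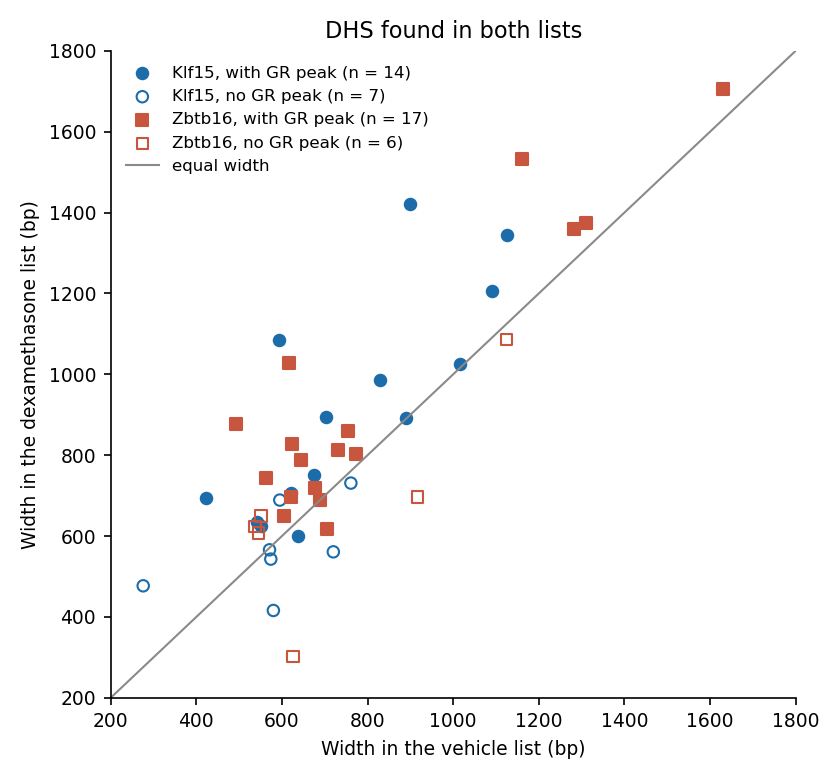
Width (bp) of DHS matched between the lists, after dexamethasone (vertical) and vehicle (horizontal), at Klf15 (circles) and Zbtb16 (squares), filled where a GR peak overlaps; the line marks equal width. Filled symbols lie above the line in 13 of 14 cases at Klf15 and 15 of 17 at Zbtb16.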

How the data were processed

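The authors deposited 5 lists of mm9 intervals, and the values in these deposited files are positions (start, end and a running number). The submitters' processing notes name CASAVA 1.8 and the build mm9. The aligner, peak caller, thresholds and pooling of samples were not given in the sources used here. Adenovirus, RNA polymerase II and input samples were not analysed here.

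Positions are printed as in the files and were treated as half-open. An interval belonged to a window by its centre, and overlap meant at least 1 bp. C/EBPβ peaks with the same running number in both lists were shared, which gave the same sets as overlap. Background windows were autosomal tiles of the same size with at least 1 interval. GR-rich windows held at least 10 GR peaks. Named regions were the members, the flanking genes in the RefSeq table and the 5 windows nearest in log2(count + 1) over the 5 lists. Single sites were picked for description after their values were seen. The members and the quantities described were chosen with earlier results of these data known. RefSeq promoters were matched by symbol, for 1 of the 2 genes. No pathway gene list was used, since no mm9 annotation was at hand. Counting was tested on simulated lists, and no p-value was computed. Alternatives changed the tiling, the window size, the overlap rule and the DHS kept. Scripts ran in Python 3.11.15 with pandas 2.3.3 and numpy 2.4.6, and figures were drawn with matplotlib 3.10.9.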

Additional observations from a re-analysis of the deposited data

How the results depend on the processing

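No list has a replicate. No paired analysis was possible because no result comes from a test over samples, and no replicate could be left out. Of the recomputed values 189 stayed within their counting interval, or within 1.5 times for counts, and 21 did not. The 189 include locus counts that settings of the background windows cannot change, so this tally does not measure stability. Intervals of the shares are also wide. Keeping only DHS above the median width put 58.8% of Klf15 GR peaks in a vehicle DHS, against 76.5%. The dex-only DHS share was then 29.4%, against 11.8%, and both shifts fell within the intervals. The cause was not tested for any of the 21 values beyond what the setting itself changes. With tiles offset by 50% of a window, 0% of windows reached the GR count of Klf15, and 1.44% reached the vehicle DHS count of Zbtb16. With empty windows included, 0.315% reached the vehicle C/EBPβ count of Klf15, and 1.52% and 1.43% reached the vehicle C/EBPβ and vehicle DHS counts of Zbtb16. A Klf15 window of 75 kb held 11 GR peaks, a count that 0.0485% of windows of that size reached, against 0.00868% for the full window. It held 10 C/EBPβ peaks after dexamethasone and 7 after vehicle, counts that 0.474% and 1.57% of windows of that size reached, and 17 DHS after dexamethasone and 14 after vehicle, reached by 0.156% and 0.393%. A Zbtb16 window of 150 kb held 17 vehicle DHS, and 0.408% and 0.660% of windows reached its dexamethasone C/EBPβ and dexamethasone DHS counts. The share of Klf15 GR peaks in a DHS of both lists, but outside the vehicle interval, was 0% when DHS within 500 bp counted as overlapping and 0% with DHS above the median width. With GR centres within 5 kb joined, Zbtb16 had 10 groups. At a threshold of 12 GR peaks, chosen after seeing the data, 61.9% of GR-rich windows had at least the share of GR peaks in dex-only DHS of Klf15, against 50% at 10. Read depth is unknown, so a site absent from a list may have been missed at that depth or threshold.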

Other observations

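The widest vehicle-only DHS of the Zbtb16 window, chr9:48627099-48628268, measured 1169 bp, and 13 of all 8488 vehicle-only DHS (0.153%) were as wide or wider, against a median of 453 bp for that kind. It overlapped 1 C/EBPβ peak, chr9:48627943-48628100, which was present in the dexamethasone list as well as in the vehicle list, and 0 GR peaks. Among the 15 C/EBPβ peaks of both lists at Zbtb16 it was the 1 peak in a vehicle DHS but in no dexamethasone DHS. The other vehicle-only DHS of Zbtb16 was 391 bp wide and the one at Klf15 349 bp wide, and neither overlapped a GR or C/EBPβ peak.

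At Klf15 a dexamethasone DHS of exactly 150 bp, chr6:90455857-90456007, overlapped the next DHS of the same list, which began at 90455996.

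Among autosomal windows of equal size, the one most like Klf15 in its counts over the 5 lists was chr6:31050000-31200000 (mm9), at a distance of 0.30 on the log2(count + 1) scale. It had 14 GR peaks, 22 C/EBPβ peaks after dexamethasone and 12 after vehicle, and 27 DHS after dexamethasone and 22 after vehicle. The next 4, chr5:66450000-66600000, chr7:106200000-106350000, chr2:163350000-163500000 and chr14:26250000-26400000, had 10 to 12 GR peaks. For Zbtb16 the nearest 5, at distances of 0.57 to 0.63, were chr5:125700000-126000000, chr13:51900000-52200000, chr10:126900000-127200000, chr4:104400000-104700000 and chr7:106200000-106500000. The window on chromosome 13 held 20 GR peaks, with 18 C/EBPβ peaks after dexamethasone and 12 after vehicle.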
